A study of Drosophila melanogaster with 16 samples.

Results

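The total small RNAs of whole male fruit flies (Drosophila melanogaster) that lack dFOXO were compared between young and old adults. These males are of the strain wDah and carry the genotype wDah;dfoxo{delta}94, a deletion in the dFOXO locus that was crossed back to the wDah background, so both ages compared here are without dFOXO. Of the 16 total small RNA libraries of the series, 4 are from dFOXO-null males, and they were chosen by the genotype, sex and age in their labels. Young flies of replicate 1 were collected at 5 days and those of replicate 2 at 6 days, and old flies at 31 days in both, an age before the median survival of this genotype. Each library was made from RNA of 40 pooled flies, and flies of both ages that share a replicate number were siblings, so each old library was set against the young library of the same number. Males were housed with females of their genotype until collection, and the tissue is the whole body, so that fewer cells of a type and less RNA per cell cannot be told apart in any value below.

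Small RNAs of this size are of several kinds. MicroRNAs (miRNAs) are cut from hairpin transcripts by Drosha and Dicer-1 and guide Argonaute1 to messenger RNAs, mostly through the seed near their 5′ end. Small interfering RNAs (siRNAs) are cut by Dicer-2 from long double-stranded RNA, have a typical length of 21 nt and guide Argonaute2, and in flies many of them come from transposons and from long hairpin RNAs of the genome. Some miRNAs also end up in Argonaute2, often as shorter forms whose 3′ end was trimmed, as the exoribonuclease Nibbler does for miR-34. dFOXO is the transcription factor that insulin signalling holds out of the nucleus, and it is known for its part in life span and stress resistance.

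Reads were counted in 3 tables. The first holds reads of 19 to 25 nt on 209 miRNAs and 122 transposons, the second holds reads of 21 nt on 156 miRNAs and 109 transposons, and the third holds reads on 2303 transcripts of the dm6 genome. Levels are given as percent of the counted reads of a library in the first pair of tables, and as RPM, reads per 1000000 counted reads, in the dm6 table. In the first table the young libraries held 15259152 and 1725056 counted reads and the old libraries 3721873 and 596871 (replicate 1, then replicate 2, an order kept throughout). For 21 nt reads the totals were 1571537, 193485, 571346 and 114210, and on dm6 they were 4261125, 795251, 1846901 and 394784. Old replicate 2 was the shallowest of the 16 libraries in each table. Its spike-in level was the highest of the 4, with 985 RPM in the 19 to 25 nt counts, against 23.9 and 71.3 RPM in the young libraries and 242 in old replicate 1. The transcript of foxo is not among those counted, so the deletion could not be checked in the reads. Muscle and testis miRNAs were present, and the ovary list (miR-318, miR-989 and miR-994) made up 0.0150% and 0.0242% of reads in the young and 0.0212% and 0.155% in the old libraries.

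Taken feature by feature, no small RNA of dFOXO-null males passed the test between the ages. The test was the quasi-likelihood test of edgeR, fitted to counts with siblings paired, and a change is called at a Benjamini-Hochberg adjusted p under 0.05 over all features of a table. Of 330 features of 19 to 25 nt, 0 were called (0%), while 62 (18.8%) had an unadjusted p under 0.05, 59 (17.9%) of them higher and 3 (0.909%) lower in old males. Of 258 features of 21 nt, 0 were called, and 29 (11.2%) had an unadjusted p under 0.05, 13 (5.04%) higher and 16 (6.2%) lower. Of 1566 transcripts, 0 were called, and 206 (13.2%) had an unadjusted p under 0.05, 158 (10.1%) higher and 48 (3.07%) lower. DESeq2, which estimates size factors and spread in another way, called 6 (1.82%), 8 (3.1%) and 18 (1.15%). A fit of edgeR to the 4 libraries alone called 1 (0.303%), 2 (0.775%) and 2 (0.128%). The lowest adjusted p of edgeR's test was 0.110, 0.196 and 0.306. With 2 libraries at each age, an exact permutation test cannot give a two-sided p below 0.333, so the values of each library are given below and "higher" or "lower in both old libraries" means that both old values lay outside both young values.

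The scale of the comparison matters. Relative to all counted reads, the median log2 fold change (old over young) was 0.81 over the features of the 19 to 25 nt table, 0.13 in the 21 nt table and 0.20 in the dm6 table. With TMM normalization, which centres the bulk of features, the medians were -0.12, 0.00 and -0.36, and the share of unadjusted p under 0.05 that were higher in old males went from 59 of 62 to 10 of 47 (3.03% of all features) in 19 to 25 nt reads, from 13 of 29 to 9 of 30 (3.49%) in 21 nt reads and from 158 of 206 to 21 of 130 (1.34%) on dm6. Scaled to the spike-in reads, the medians were -2.68, -1.85 and -2.49. The 21 nt scale rests on only 17 and 11 spike-in reads in the young and 31 and 16 in the old libraries. For dm6 the spike-in reads of the 19 to 25 nt counts were used. Without old replicate 2 the medians were 0.23, -0.02 and 0.01. Changes of log2 size are therefore read beside these medians, and for several lists the median without that library is given too. Of the 330 features of the first table, 115 (34.8%) were higher and 30 (9.09%) lower in both old libraries. In the 21 nt table the numbers were 53 (20.5%) and 49 (19%) of 258, and on dm6 they were 338 (21.6%) and 220 (14%) of 1566.

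Most of the abundant miRNAs of young dFOXO-null males were abundant in old ones too. The 20 miRNAs with the highest mean percent in the young libraries made up 94.0% and 92.6% of miRNA reads in the young and 91.0% and 77.7% in the old libraries, and 18 of them were also among the 20 highest in old males. With a change of 2-fold in the mean as threshold, 2 of the 20 were higher in old males, miR-34-5p and miR-278-3p, and 0 were lower. Of all 330 features of the table, 162 (49.1%) had a ratio of at least 2 and 19 (5.76%) a ratio of at most 0.5. Among the 20 miRNAs, only miR-34-5p reached 2-fold in both sibling pairs. The count for the 20 was 1 without old replicate 2 (miR-34-5p), and 4 without either young replicate 2 or old replicate 1.

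**Figure D1:**
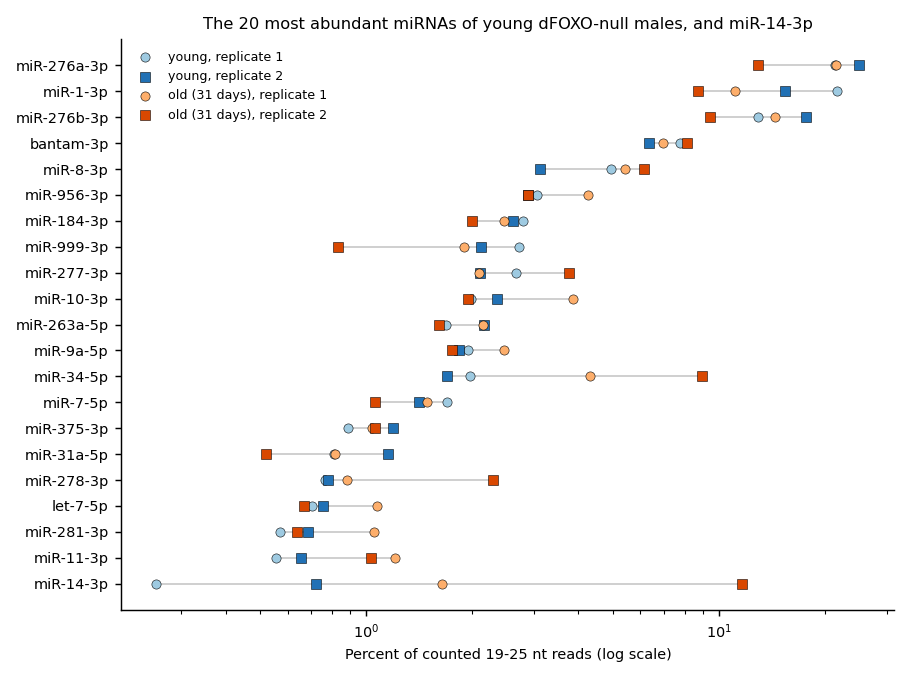
Percent of counted 19 to 25 nt reads (log scale) of the 20 most abundant miRNAs of young dFOXO-null males, ordered by their mean in young flies, with miR-14-3p added below. Each point is 1 library, circles for replicate 1 and squares for replicate 2, blue for young and orange for old, and miR-34-5p and miR-14-3p show both old libraries to the right of both young ones.

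miR-276a-3p, which dampens dopamine receptor expression in the brain, was the most abundant miRNA at both ages, with 21.4% and 25.0% of reads in the young and 21.5% and 12.9% in the old libraries. The ages overlapped, since old replicate 1 lay between the young libraries. bantam-3p, a growth-promoting miRNA that blocks the cell death gene hid, held 7.75% and 6.35% in young and 6.93% and 8.13% in old males, with a ratio of means of 1.07. miR-8-3p, which acts on insulin signalling in the fat body, held 4.96% and 3.11% in young and 5.44% and 6.14% in old males. Both old libraries were higher, the log2 fold change was 0.58 with a standard error (SE) of 0.44 (adjusted p = 0.430 with edgeR), below the median of the table, and the value was -0.40 with TMM. miR-11-3p, which restrains cell death genes from within the E2f1 gene, was higher in both old libraries as well, at 0.557% and 0.656% in young and 1.21% and 1.04% in old males, and its log2 fold change turned from 0.89 to -0.05 with TMM.

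Among the 20 abundant miRNAs, miR-34-5p had the highest ratio of old to young. This miRNA is known in flies for its rise in the ageing brain and for a shorter life span and brain degeneration where it is lost. Its hairpin lies on chromosome 3R at 10100936 to 10101034 on the plus strand (dm6), in an exon of lncRNA:CR43459 that also holds mir-277. In 19 to 25 nt reads miR-34-5p made up 1.98% and 1.70% of the young and 4.33% and 8.96% of the old libraries, which is 2.19-fold in pair 1 and 5.28-fold in pair 2. The log2 fold change was 1.78 (SE 0.68, unadjusted p = 0.0198, adjusted p = 0.225 with edgeR's quasi-likelihood test), 0.80 with TMM and 1.30 without old replicate 2, and it turned to -1.77 when scaled to spike-in reads. It moved from place 13 among the miRNAs of young males to place 5 in old males.

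The neighbours of miR-34 went with it in part. miR-317-3p, from a hairpin on 3R at 10091126 to 10091217, was higher in both old libraries, at 0.148% and 0.215% in young and 0.334% and 0.611% in old males, and its log2 fold change of 1.33 (SE 0.47, adjusted p = 0.204) was 0.38 with TMM and turned to -2.23 when scaled to spike-in reads. miR-277-3p, a regulator of branched-chain amino acid breakdown, overlapped between the ages in this table, with 2.67% and 2.10% in young and 2.09% and 3.76% in old males. Its log2 fold change was 0.21, turned to -0.76 with TMM, and was -0.09 without old replicate 2. Its partner strand miR-277-5p was lower in both old libraries, at 0.0748% and 0.131% in young and 0.0579% and 0.0432% in old males. Over the 6 strands of the mir-277, mir-34 and mir-317 cluster, 3 were higher and 1 was lower in both old libraries, beside 34.8% and 9.09% of all features. The median log2 fold change was 1.02 beside 0.81 for the table, or 0.07 with TMM beside -0.12.

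miR-14-3p had the lowest p of the table. miR-14 is known in flies for its part in fat metabolism, insulin production and the restraint of cell death, and its hairpin lies on 2R in an exon of lncRNA:CR43651. It made up 0.255% and 0.721% of reads in the young and 1.64% and 11.6% in the old libraries, so both old values lay above both young ones and the old pair spanned a wide range. The ratio was 6.45 in pair 1 and 16.1 in pair 2, and the place of miR-14-3p among miRNAs went from 23 to 6. The log2 fold change was 3.35 (SE 0.72, unadjusted p = 0.000334, adjusted p = 0.110 with edgeR), 2.37 with TMM and 2.88 without old replicate 2. DESeq2 called it at 2.71 (adjusted p = 0.0160), and so did edgeR's test fitted to the 4 libraries alone (3.35, adjusted p = 7.59e-05). With spike-in reads as library size its direction turned, at -0.19. The partner strand of the same hairpin, miR-14-5p, held 0.0686% and 0.144% in young and 0.0988% and 0.124% in old males, where the ages overlapped, with a log2 fold change of 0.13 (SE 0.62).

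The let-7 complex, 3 miRNAs from 1 long transcript that time development and adult neuromuscular maturation, was higher in old males in most of its strands. Of its 6 strands, 5 were higher in both old libraries and 0 lower, beside 34.8% and 9.09% of all features of the table. In 21 nt reads 3 of its 4 strands were higher and 1 was lower. There its sum overlapped between the ages, at 6.18% and 6.10% in young and 6.24% and 3.49% in old males. The values that follow are from 19 to 25 nt reads. The median log2 fold change was 1.36, beside 0.81 for all features, and it was 0.41 with TMM and 1.16 without old replicate 2. miR-125-5p, from chromosome 2L at 18472315 to 18472424, held 0.0304% and 0.0176% in young and 0.0523% and 0.523% in old males (log2 fold change 2.55, SE 0.89, adjusted p = 0.204). The passenger strand let-7-3p held 0.00277% and 0.00243% in young and 0.0101% and 0.0174% in old males (2.32, SE 0.62, adjusted p = 0.195, 1.35 with TMM). The far more abundant let-7-5p overlapped between the ages, at 0.702% and 0.758% in young and 1.07% and 0.667% in old males. For miR-125-5p old replicate 2 stood far above old replicate 1, and its log2 fold change was 1.44 without that library.

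Some features that were higher in both old libraries had few reads. miR-988-3p held 0.000983% and 0.00116% in young and 0.00269% and 0.0310% in old males, and miR-92a-3p was at 45 and 7 reads in young and 24 and 117 in old males. Both were called by DESeq2 (adjusted p = 0.0160 each, log2 fold changes of 2.42 and 2.93), and most of the difference stood in old replicate 2. miR-278-3p, which is needed for the response to insulin in the fat body, was near level in pair 1 and higher in pair 2, at 0.768% and 0.779% in young and 0.884% and 2.29% in old males. Its log2 fold change was 0.87 (SE 0.63, adjusted p = 0.400), and it turned to -0.11 with TMM.

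Of the 3 muscle miRNA strands, 2 were lower in both old libraries, miR-1-3p and miR-133-3p, beside 9.09% of all features, and 0 passed the test. miR-1-3p, which is specific to muscle and was the second most abundant miRNA of young males, made up 21.7% and 15.4% of reads in young and 11.1% and 8.76% in old males. Both old values lay below both young ones, with ratios of 0.513 and 0.567 in the pairs that were close to each other. The log2 fold change was -0.88 (SE 0.44, unadjusted p = 0.0629, adjusted p = 0.271 with edgeR), -1.85 with TMM and -1.23 without old replicate 2. miR-133-3p, the partner of miR-1 in muscle across animals, from 2L at 20616617 to 20616714, held 0.0592% and 0.112% in young and 0.0284% and 0.0330% in old males. Its log2 fold change was -1.38 (SE 0.69, adjusted p = 0.271), and DESeq2 called it at -2.01 (adjusted p = 0.0160). All 3 strands of the list were below 0 with all libraries and with TMM, and the median was -0.88 beside 0.81 for the table. Without old replicate 1 the scarcest strand, miR-133-5p, was at 0.43 and the median at -0.59. miR-999-3p, from an intron of CASK on 3R, was lower as well, at 2.72% and 2.11% in young and 1.89% and 0.832% in old males (log2 fold change -0.97, SE 0.57, adjusted p = 0.329). Outside muscle, miR-991-3p held 0.00471% and 0.00475% in young and 0.00202% and 0.00134% in old males. Its log2 fold change was -1.52 (SE 0.63, adjusted p = 0.241 with edgeR). DESeq2 called it at -2.12 (adjusted p = 0.0493) and the scarce miR-2c-5p at -2.72 (adjusted p = 0.0160).

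The testis cluster of mir-972 to mir-979 had 2 of 3 strands lower and 0 higher in both old libraries among 21 nt reads. Over that table, 19% of features were lower and 20.5% higher in both. Of the 3 strands, 1 had a log2 fold change above 0. Among its 5 strands in 19 to 25 nt reads, 2 were lower and 0 higher, beside 9.09% and 34.8% of all features. In 19 to 25 nt reads its 5 strands summed to 0.0324% and 0.0246% in young and 0.0147% and 0.0196% in old males, and in 21 nt reads to 0.175% and 0.108% in young and 0.0506% and 0.0377% in old males. miR-976-3p carried most of it, with 0.168% and 0.103% of the 21 nt reads in young and 0.0483% and 0.0245% in old males (log2 fold change -1.92, SE 0.69, adjusted p = 0.306). The median of the cluster in 21 nt reads was -1.42, beside 0.13 for the table, and it was -0.26 without old replicate 1. The cluster of mir-959 to mir-964, whose miRNAs cycle with feeding time in the adult, went the same way in 21 nt reads. There 6 of its 7 strands were lower in both old libraries and 0 were higher, beside 19% and 20.5% of all features. Its sum went from 0.250% and 0.342% to 0.147% and 0.132%. Its median was -0.95, or -1.43 without old replicate 1 and -1.05 without old replicate 2. In 19 to 25 nt reads 3 of its 9 strands were lower and 0 higher, beside 9.09% and 34.8% of all features, with a median of -0.30. The ages overlapped in that sum, at 0.0547% and 0.0780% in young and 0.0477% and 0.0566% in old males. miR-960-5p, from 2L at 5641063 to 5641155, had 386 and 46 reads of 21 nt in young and 32 and 4 in old males, and DESeq2 called it at -2.45 (adjusted p = 0.0160), beside an adjusted p of 0.196 with edgeR. miR-961-5p held 0.00895% and 0.00997% of 19 to 25 nt reads in young and 0.00451% and 0.00235% in old males. Its log2 fold change was -1.54 (SE 0.71, adjusted p = 0.261 with edgeR).

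Of the remaining lists, the K-box family, miRNAs whose seed matches a motif that represses Notch target genes, had 7 of 14 strands higher and 1 lower in both old libraries, with a median of 1.03, or 0.04 with TMM. Over the table, 34.8% of features were higher and 9.09% lower in both old libraries. All 5 strands of the mir-309 cluster, known from the early embryo, were higher in both old libraries with a median of 1.07, or 0.15 with TMM, at a summed level of only 0.00688% and 0.00945% in young and 0.0169% and 0.0179% in old males. The growth and metabolism list (21 strands) had a median of 0.58, and the list of the nervous system and sense organs (22 strands) 0.35, both below the 0.81 of the table. The Hox complex miRNAs had a median of -0.03, the mir-310 cluster 0.75 and the list of fast-evolving testis miRNAs -0.37, with 1, 2 and 0 strands higher and 1, 1 and 2 lower in both old libraries, of 5, 9 and 6. In 21 nt reads their medians were -0.43, -0.83 and -0.996, beside 0.13 for that table. In the same reads the miR-9 family had 3 of 6 strands lower and 0 higher in both old libraries, beside 19% and 20.5% of all features, with a median of -0.38. Without old replicate 2, the 19 to 25 nt medians were 0.33 for the K-box family, 1.41 for mir-309 and -0.17 for mir-310. The growth and nervous system lists were then at 0.42 and 0.02, the Hox complex at 0.13 and the fast-evolving testis miRNAs at -0.61. The median of the table was then 0.23.

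The ovary list needs its own account, since males should read little of it. miR-989-3p held 0.00488% and 0.00846% in young and 0.0117% and 0.0534% in old males, and miR-994-5p held 0.00380% and 0.00388% in young and 0.00314% and 0.0340% in old males. The median of the 4 strands was 1.92 with all libraries and 0.07 without old replicate 2. The higher level of the list therefore rests on that library. The transposon reads of that library were raised along with it, as given below, and the part of ovary RNA in them was not tested.

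**Figure D2:**
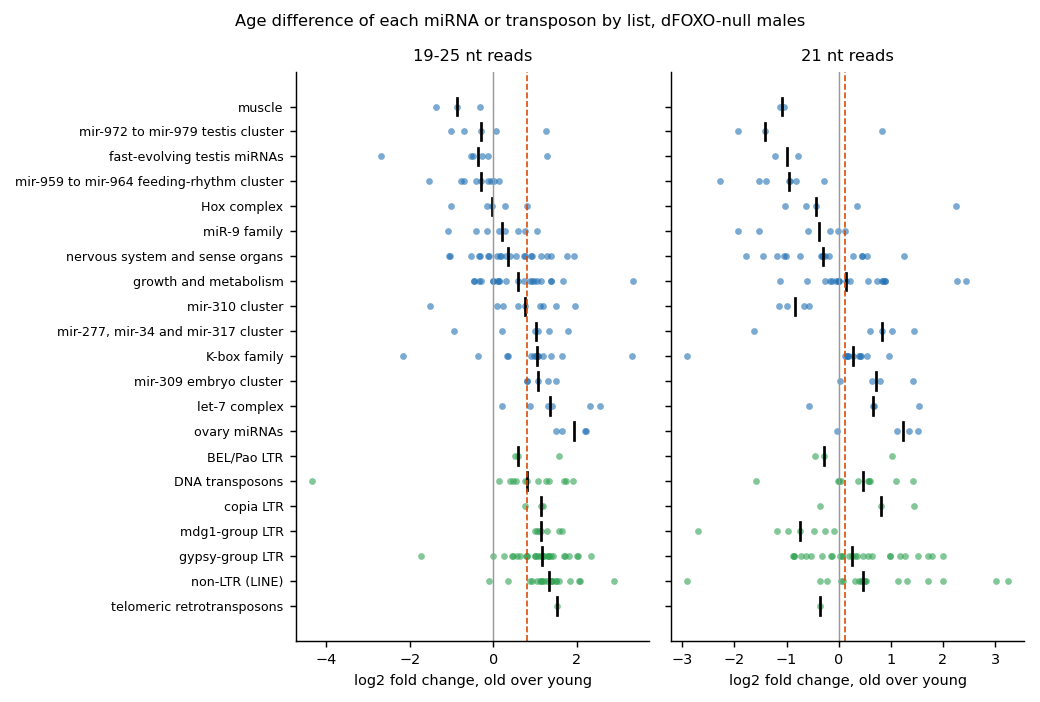
Log2 fold change (old over young) of each miRNA strand (blue) and transposon (green) of dFOXO-null males by list, in 19 to 25 nt reads at left and 21 nt reads at right. Black bars are the medians of the lists and the dashed line is the median of all features of the table (0.81 and 0.13). The muscle list lies below 0 in both, and the medians of all groups of transposons are above 0 at left. At right the mdg1 group lies below 0 (median -0.75), and the non-LTR group has a median of 0.46.

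Among 21 nt reads, miR-34-5p took a far larger place in old males. It made up 8.97% and 8.52% of 21 nt reads in the young and 17.4% and 33.0% in the old libraries, with a log2 fold change of 1.45 (SE 0.55, unadjusted p = 0.0187, adjusted p = 0.306 with edgeR). The fit of the 4 libraries alone called it (adjusted p = 0.0496). miR-14-3p held 0.241% and 0.413% of 21 nt reads in young and 0.842% and 3.48% in old males (2.44, SE 0.66, adjusted p = 0.196), and DESeq2 called it at 2.31 (adjusted p = 0.0462). miR-277-3p was higher in both old libraries here, at 1.23% and 0.665% in young and 1.65% and 2.15% in old males (1.02, SE 0.46, adjusted p = 0.401), unlike in the 19 to 25 nt reads. DESeq2 also called miR-993-3p, at 2.08 (adjusted p = 0.00798), on only 66 and 9 reads of 21 nt in young and 93 and 37 in old males.

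Several miRNAs were lower in both old libraries among 21 nt reads. miR-306-5p, from an intron of grp on 2L at 16698404 to 16698488, held 0.537% and 0.386% in young and 0.134% and 0.105% in old males. Its log2 fold change of -1.94 (SE 0.50, unadjusted p = 0.00157, adjusted p = 0.196) was the lowest p of the 21 nt table, and DESeq2 called it at -2.10 (adjusted p = 0.0142). miR-184-3p, which acts in germline and early development and is read here from the whole body, held 7.08% and 5.02% in young and 3.42% and 2.15% in old males (-1.14, SE 0.41, adjusted p = 0.306, and called by DESeq2 with an adjusted p of 0.00798). miR-315-5p, an activator of Wingless signalling, held 0.0613% and 0.0605% in young and 0.0229% and 0.0131% in old males (-1.78, DESeq2 adjusted p = 0.0255). miR-277-5p held 0.453% and 0.667% in young and 0.221% and 0.126% in old males (-1.62, DESeq2 adjusted p = 0.0255). miR-1-3p held 15.9% and 10.4% in young and 8.16% and 4.82% in old males (-1.04, SE 0.40). In each of these miRNAs the ages did not overlap, and the direction stayed under TMM and without either old library.

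The 21 nt form was a larger share of miRNA reads in both old libraries. Reads of 21 nt were 10.2% and 11.1% of the 19 to 25 nt reads on miRNAs in the young and 15.3% and 19.2% in the old libraries. Without miR-34-5p, all features together went from 9.56% and 10.4% to 13.3% and 14.1%. These pooled shares can also move with the mix of miRNAs in a library, and the part of that mix was not tested. Taken miRNA by miRNA, each is its own reference, so the library size does not enter. The mix of miRNAs that share reads still can, and its part was not tested. Among the 77 miRNAs that had 100 or more reads in all 4 libraries, the 21 nt share was higher in both old libraries for 30 (39.0%) and lower for 12 (15.6%). The median difference was 2.21 percentage points, and 9 miRNAs differed by 10 points or more. miR-276a-5p and miR-276b-5p had identical counts, so the 77 are not all separate measurements.

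miR-34-5p was read as the 21 nt form in 46.8% and 56.4% of its reads in young and in 61.5% and 70.5% in old males. miR-277-3p went from 4.73% and 3.55% to 12.2% and 10.9%, a ratio of means of 2.79. miR-957-3p went from 41.1% and 41.6% to 56.9% and 54.9%. In all 3 the old libraries stood above the young, and for miR-957-3p the replicates of an age lay close together. The same was seen in wildtype males, where the 21 nt share of miR-277-3p was 4.69% and 2.99% in young and 10.2% and 10.1% in old flies and that of miR-34-5p 51.5% and 54.0% in young and 59.9% and 64.9% in old flies. Smaller differences in the same direction were seen for miR-1-3p, from 7.52% and 7.57% to 11.2% and 10.5%, and for miR-276a-3p, from 2.91% and 3.32% to 5.24% and 6.79%.

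Other miRNAs were read as the 21 nt form less often in both old libraries. miR-263b-5p, which protects sensory bristles, went from 75.7% and 70.2% to 54.4% and 48.1%, and miR-9c-5p from 64.7% and 61.8% to 48.1% and 46.1%. miR-281-3p went from 49.1% and 49.5% to 38.5% and 13.6%, with old replicate 2 far below old replicate 1. miR-124-3p, the miRNA of neurons, went from 22.2% and 22.4% to 8.66% and 6.16%, on only 127 and 146 reads in the old libraries. let-7-5p, which is mostly 21 nt long, went from 87.5% and 88.3% to 85.0% and 76.5%. miR-14-3p overlapped between the ages in length, with 9.72% and 6.43% in young and 7.86% and 5.73% in old males.

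**Figure D3:**
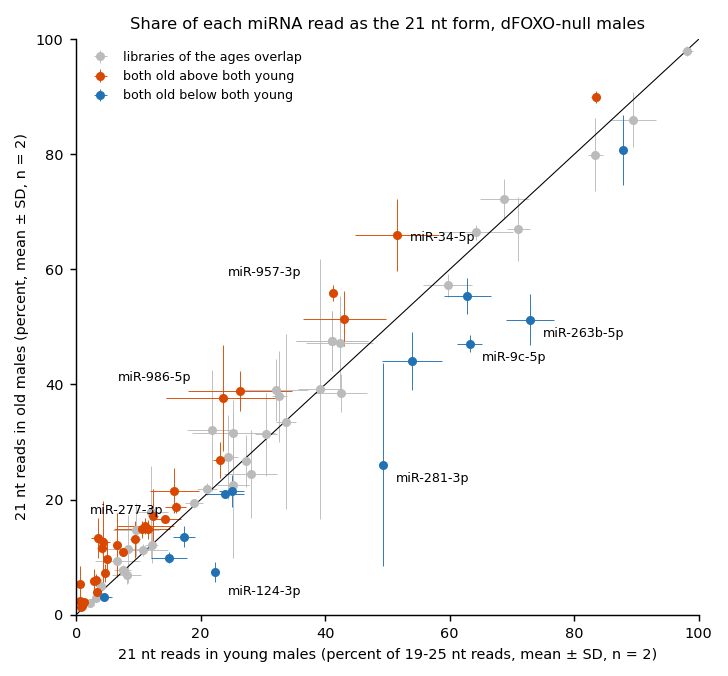
Share of the reads of each miRNA that are 21 nt long, as percent of its 19 to 25 nt reads, in young (x axis) and old (y axis) dFOXO-null males for the 77 miRNAs that had 100 or more reads in all 4 libraries. Points are means and bars SD of 2 libraries, orange where both old libraries lie above both young (30 miRNAs), blue where both lie below (12), and the line marks equal shares.

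The summed 21 nt reads of transposons overlapped between the ages. Transposons made up 1.11% and 1.38% of the 21 nt reads in young and 1.12% and 1.63% in old males, a ratio of means of 1.11. In 19 to 25 nt reads their share was 0.430% and 0.617% in young and 0.557% and 1.75% in old males, where old replicate 2 alone stood above the rest. The 20 transposons with the most 21 nt reads in young males made up 79.5% and 85.6% of transposon reads in young and 78.6% and 77.5% in old males, and 16 of them were among the 20 highest in old males. With the 2-fold threshold, 2 were higher, 1 was lower and 17 lay between. Over all features of the 21 nt table, 59 of 258 (22.9%) had a ratio of at least 2 and 37 (14.3%) a ratio of at most 0.5. Without old replicate 2, the count past 2-fold went from 3 to 5, with 1 higher and 4 lower. Transposons are named below by their identifiers in the table, and 76 of the 122 identifiers spell the name of a known element.

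The transposon with the most siRNAs was DM_ROO, an identifier that spells roo, an LTR retrotransposon. It held 0.407% and 0.564% of 21 nt reads in young and 0.377% and 0.411% in old males, and the ages overlapped (log2 fold change -0.29, SE 0.44, adjusted p = 0.843). DMRTMGD1 held 0.128% and 0.127% in young and 0.129% and 0.184% in old males. Only old replicate 2 stood clear of the young libraries, and the log2 fold change was 0.28 (SE 0.47).

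The transposons past 2-fold did not behave alike in the pairs. DMIS297, which spells 297, differed more between the young libraries than between the ages, at 0.00980% and 0.0863% in young and 0.0518% and 0.143% in old males, with ratios of 5.29 and 1.65. QBERT held 0.0417% and 0.0150% in young and 0.0301% and 0.112% in old males, which is 0.721-fold in pair 1 and 7.48-fold in pair 2, so its mean ratio of 2.51 rests on old replicate 2. STALKER was lower in both pairs, at 0.0238% and 0.0326% in young and 0.0114% and 0.0131% in old males (ratios 0.478 and 0.403, log2 fold change -1.19, SE 0.51, unadjusted p = 0.0330, adjusted p = 0.387). Its relative STALKER4 was at 0.0218% and 0.0284% in young and 0.0115% and 0.0140% in old males, and the elements of this family can share reads. All 7 transposons listed as the mdg1 group of LTR elements, which holds the STALKER elements, had a log2 fold change below 0 in 21 nt reads. Their median was -0.75 beside 0.31 over all transposons. Of the 7, 2 were lower and 0 higher in both old libraries, beside 19% and 20.5% of all features of the 21 nt table. Without old replicate 1, 3 of the 7 were above 0. In 19 to 25 nt reads all 7 were above 0, with a median of 1.14, or -0.11 without old replicate 2. DMCOPIA, which spells copia, was higher in both old libraries, at 0.0101% and 0.0155% in young and 0.0228% and 0.0201% in old males (0.81, SE 0.54, adjusted p = 0.529).

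One less abundant transposon stood out. DMU89994 held 0.00834% and 0.00879% of 21 nt reads in young and 0.0371% and 0.0184% in old males, ratios of 4.45 and 2.09 (log2 fold change 1.71, SE 0.55, adjusted p = 0.279), and DESeq2 called it at 1.56 (adjusted p = 0.0359). In 19 to 25 nt reads it was at 0.00202% and 0.00226% in young and 0.00844% and 0.00854% in old males, nearly the same in both old libraries (1.99, SE 0.56, adjusted p = 0.195, 1.05 with TMM). The counts behind it are small, with 17 reads of 21 nt in young replicate 2 and 21 in old replicate 2. Its identifier does not spell an element, and no name is given here.

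**Figure D4:**
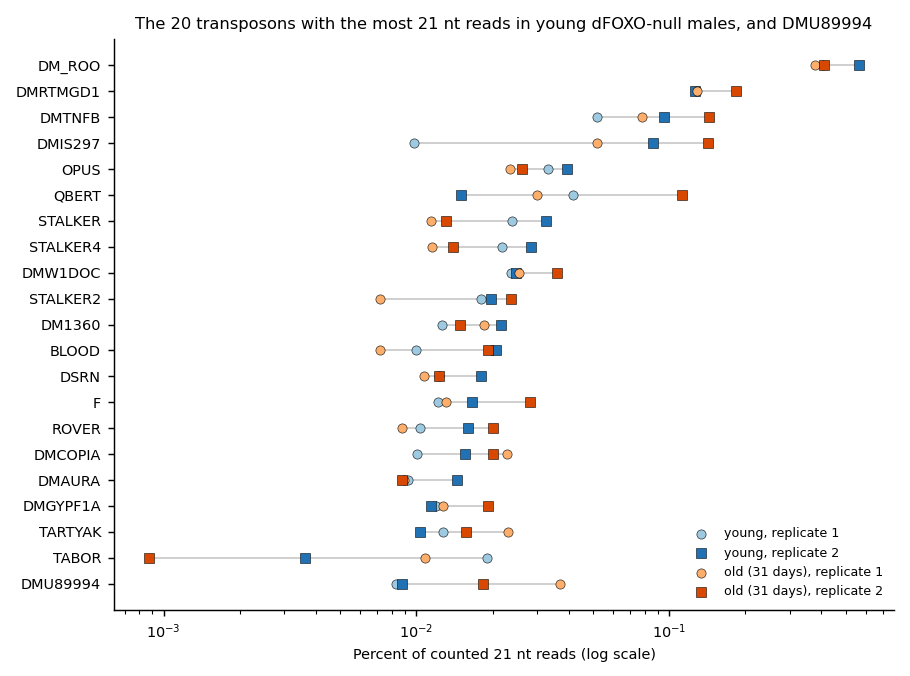
Percent of counted 21 nt reads (log scale) of the 20 transposons with the most 21 nt reads in young dFOXO-null males, with DMU89994 added below, under the identifiers of the table. Each point is 1 library, circles for replicate 1 and squares for replicate 2, blue for young and orange for old. DM_ROO is the highest at both ages, STALKER and STALKER4 show both old libraries to the left of both young ones, and QBERT is set apart by old replicate 2.

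In 19 to 25 nt reads, which hold other small RNAs of transposons besides siRNAs, 117 of 122 transposons had a log2 fold change above 0, with a median of 1.15. Of the 122, 38 (31.1%) were higher in both old libraries and 0 lower, beside 34.8% and 9.09% of all features of the table, and 37 had an unadjusted p under 0.05. The median was 0.18 with TMM and 0.26 without old replicate 2. When old replicate 1 was left out instead, 56 features (17%) were called higher by edgeR's test, 47 of them transposons and 9 miRNAs, among them miR-14-3p, miR-125-5p and the ovary miRNAs miR-318-3p, miR-989-3p and miR-994-5p. That fit has only old replicate 2 at the old age, which is assumed to vary like the other groups, so its calls reflect that library. The 21 nt part of transposon reads was 26.5% and 25.1% in young and 30.9% and 17.8% in old males. Old replicate 2, with the highest transposon share of the 4 libraries, had the smallest part of it at 21 nt. The ovary list was at 0.155% in that library and between 0.0150% and 0.0242% in the other 3, and its part in the transposon reads was not tested.

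On the dm6 genome, reads on miRNA hairpins were a smaller part, and reads on ribosomal RNA a larger part, in the old library of each pair. Reads on miRNA hairpins (pre-miRNA) were 59.9% and 35.9% of counted reads in young and 36.3% and 22.9% in old males, while reads on ribosomal RNA were 8.47% and 19.2% in young and 19.2% and 32.8% in old males. Both classes overlapped between the ages by young replicate 2, although each pair had the same direction. tRNA fragments were higher in both old libraries, at 3.25% and 4.49% in young and 5.73% and 6.54% in old males (mean 3.87% ± 0.878 and 6.13% ± 0.574, SD, n = 2 each). Reads on snRNA, from the RNAs of the spliceosome, were at 0.0806% and 0.0815% in young and 0.112% and 0.191% in old males, and reads on snoRNA, which guide the modification of ribosomal RNA, at 0.157% and 0.161% in young and 0.195% and 0.236% in old males. When reads on hairpins were left out of the total, tRNA fragments were 8.11% and 7.01% in young and 8.99% and 8.49% in old males, and snRNA and snoRNA overlapped between the ages.

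**Figure D5:**
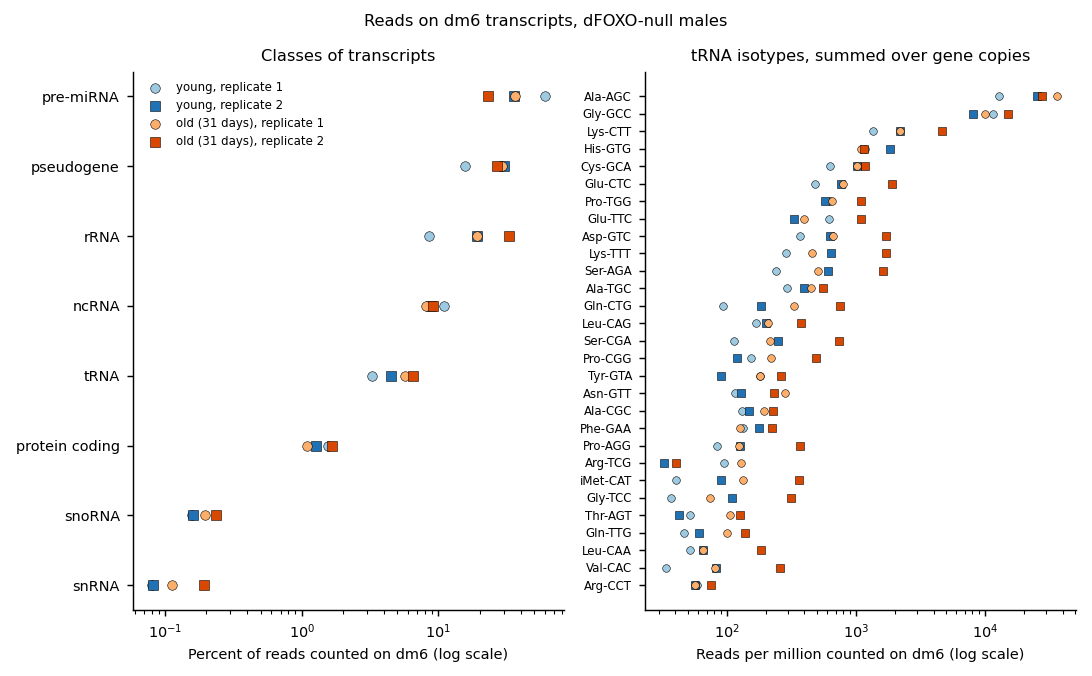
Reads of dFOXO-null males on dm6 transcripts, as percent of counted reads by class of transcript at left and as RPM for 29 tRNA isotypes at right, summed over the gene copies of each, both on log scales. Circles are replicate 1, squares replicate 2, blue young and orange old. Hairpin reads are lower and tRNA, snRNA and snoRNA reads higher in the old library of each pair.

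tRNA fragments differed by isotype. Of the 281 tRNA genes tested, 69 had an unadjusted p under 0.05 and all of these were higher in old males, beside 158 of 1566 (10.1%) over the table. Many gene copies of a tRNA share their sequence and their reads, so the copies are not separate measurements, and the isotypes were summed. Of 29 isotypes with a mean of at least 100 summed reads over the 4 libraries, 15 were higher in both old libraries and 1, His-GTG, was lower, with a median ratio of 2.08. Of all single transcripts tested, 21.6% were higher and 14% lower in both old libraries. Gln-CTG was at 93.4 and 184 RPM in young and 331 and 747 in old males, a ratio of 3.89, and the initiator iMet-CAT at 40.1 and 90.5 in young and 133 and 362 in old males, a ratio of 3.79. The most abundant isotype, Ala-AGC, differed less, at 12946 and 25446 in young and 36055 and 27775 in old males. His-GTG was at 1168 and 1851 in young and 1099 and 1153 in old males. With TMM the median over tRNA genes went from 0.85 to 0.20, that of Gln-CTG from 2.02 to 1.37, and that of Ala-AGC from 0.70 to 0.14.

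Of the 5S rRNA genes and their pseudogenes, all 100 tested copies had a log2 fold change above 0. The median was 1.18, or 0.61 with TMM. An unadjusted p under 0.05 was reached by 42, all higher in old males, beside 158 of 1566 (10.1%) of all transcripts tested. But only 3 were higher in both old libraries, beside 21.6% of all transcripts tested. Copies can share reads, and 5SrRNA:CR33391 and 5SrRNA:CR33405 had identical counts, so the 100 are not all separate measurements. The copies summed to 51698 and 180948 RPM in young and 166820 and 304326 in old males, so young replicate 2 lay between the old libraries. Of 28 snRNA genes tested, 23 were higher in both old libraries and 0 lower (median 0.75, or 0.14 with TMM), among them 5 of 6 copies of U1. The Hsp70 genes, which encode heat shock chaperones and whose copies share reads, were at 45.8 and 41.5 RPM in young and 65.5 and 111 in old males, with all 6 higher in both old libraries (median 0.71, or 0.11 with TMM). Reads on histone genes, which are named here because their messages are made in dividing cells, were at 948 and 1255 RPM in young and 539 and 841 in old males. Of their 121 copies, which share reads, 56 were lower in both old libraries and 1 was higher, beside 14% and 21.6% of all transcripts tested. Their median was -0.41, or -1.02 with TMM, beside 0.20 and -0.36 for the table, and it was -0.69 without old replicate 2.

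Reads on 102 miRNA hairpins of dm6 were counted and tested. The hairpins mir-14, mir-34, mir-277 and mir-1 and those of the let-7 complex are not among the hairpins counted. The numbers below therefore do not cover these miRNAs, several of which were higher in old males in the miRNA counts above. Of the 102, 37 (36.3%) were lower and 7 (6.86%) higher in both old libraries, beside 14% and 21.6% of all transcripts tested, and the median log2 fold change was -0.39 beside 0.20 for the table. mir-133 was at 2151 and 2453 RPM in young and 578 and 512 in old males (log2 fold change -2.04, SE 0.57, adjusted p = 0.306 with edgeR), and DESeq2 called it at -2.64 (adjusted p = 0.00188). The testis hairpins mir-983-1 and mir-983-2, neighbours on the X chromosome at 4368309 to 4368399 and 4368483 to 4368581 that share all their reads, were each at 5622 and 441 reads in young and 882 and 102 in old males (-1.30, SE 0.46, adjusted p = 0.306, DESeq2 -1.92 with an adjusted p of 0.0102). mir-991 (-2.07), mir-961 (-1.88), mir-306 (-1.73), mir-193 (-1.44), mir-957 (-1.42) and mir-305 (-1.25) were lower in both old libraries too and were called by DESeq2. In all, 14 of the 18 transcripts called by DESeq2 were hairpins, all lower in old males. They include mir-4966-1 and mir-4966-2, which had identical counts as mir-983-1 and mir-983-2 did, so the 14 are not all separate measurements. Hairpins were 102 of the 1566 transcripts tested. Hairpin reads as a whole had a ratio of 0.618, old over young, in their mean share of counted reads.

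Long hairpin RNAs and the Suppressor of Stellate repeats are sources of small RNAs that the testis uses. Su(Ste) repeats lie on the Y chromosome and silence the X-linked Stellate genes, whose protein otherwise forms crystals in spermatocytes. Of the 27 Su(Ste) transcripts tested, 26 were lower in both old libraries and 0 higher, beside 14% and 21.6% of all transcripts tested, but they share their reads. Their sum was 77500 and 57241 RPM in young and 34214 and 50182 in old males, so both old values lay below both young ones, and the median log2 fold change was -0.63, or -0.11 without old replicate 1 and -1.37 without old replicate 2. The 13 Stellate transcripts summed to 5859 and 4771 in young and 2851 and 4823 in old males, with overlapping ages. hpRNA:CR46342, a long hairpin RNA on the X chromosome at 4921677 to 4928133, went the other way, at 127679 and 20734 reads in young and 80701 and 13883 in old males, which is 29964 and 26072 RPM in young and 43695 and 35166 in old males. Its log2 fold change was 0.50 (SE 0.60, adjusted p = 0.809) and turned to -0.09 with TMM and -0.11 with DESeq2.

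Whether dFOXO-null males age differently from wildtype males was asked of each feature. The difference of the age effects between dFOXO-null and wildtype males was called for 0 of 330 features of 19 to 25 nt (1, or 0.303%, with an unadjusted p under 0.05, 0 called by DESeq2), 0 of 258 of 21 nt (0 with an unadjusted p under 0.05, 0 by DESeq2) and 1 of 1566 transcripts (0.0639%; 51, or 3.26%, unadjusted, 1 by DESeq2). For miR-14-3p the log2 fold change was 3.35 in dFOXO-null and 2.46 in wildtype males, a difference of 0.89 (SE 0.95). For miR-34-5p it was 1.78 and 1.52, and for miR-1-3p -0.88 and -0.63. A p that misses the threshold does not show that the genotypes act alike. In the dm6 table, 177 transcripts (11.3%) were called between the ages in wildtype males and 0 in dFOXO-null males, but the difference itself was called for only 1, so the counts do not show that the genotypes age differently.

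That 1 transcript was Muc14A, a mucin gene on the X chromosome at 16009114 to 16061722. It was read 65 and 42 times in young and 9 and 0 times in old dFOXO-null males, and 0 and 1 times in young and 162 and 74 times in old wildtype males. The ages did not overlap in either genotype, and the directions were opposite. The log2 fold change was -3.07 in dFOXO-null and 7.40 in wildtype males, and the difference was -10.47 (SE 1.68, adjusted p = 0.0254 with edgeR's quasi-likelihood test). The call was lost without old replicate 1, old replicate 2 or young replicate 2. With counts this low, and at 0 or 1 read in 3 of the libraries, the fitted sizes depend on the prior count of the fit and are not bounds.

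Between the sexes of dFOXO-null flies, the difference of the age effects was called for 0 features in each table, with 26 (7.88%), 6 (2.33%) and 60 (3.83%) at an unadjusted p under 0.05 and 0 by DESeq2 in each. miR-1-3p was lower with age in both sexes, by a log2 fold change of -0.88 in males and -2.41 in females, and the difference of 1.53 had an unadjusted p of 0.0264. DMU89994 was at 1.99 in males and -0.39 in females in 19 to 25 nt reads, and let-7-5p at 0.20 and -1.65, with unadjusted p of the difference of 0.00799 and 0.0248. Each of these failed the adjustment over the table. miR-34-5p was at 1.78 in males and 1.62 in females and miR-14-3p at 3.35 and 2.23.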

How the data were processed

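Small RNAs of 19 to 35 nt were selected on gels, sequenced and, by the authors, trimmed with Trim Galore, aligned with Bowtie (1 mismatch, all valid alignments) and counted with featureCounts against dm6, miRNA and transposon references; tool versions are not given in the sources used here. The deposited counts are not normalized by the authors, and a read can count on several copies. Percent columns beside them were not used. Spike-in and virus rows were left out of totals and tests.

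Counts were fitted with edgeR 4.0.16 (R 4.3.3) over all 16 libraries, with 8 groups of genotype, sex and age, a replicate term within each genotype and the counted total as library size. Features were kept where their mean count reached 5, and p-values were adjusted by Benjamini-Hochberg over each table. DESeq2 1.42.0 was an alternative. The labels give young and old flies of 1 genotype and number as siblings. Deviations of old and young replicate 1 of dFOXO-null males from their group means correlated across features (Pearson r of 0.307, 0.263 and 0.401 in the 3 tables). With 2 libraries per group, replicate 2 only mirrors replicate 1. In these males replicate number also goes with depth and with the collection day of the young flies, so the correlation cannot tell siblings from these. Replicates are separate pools of flies. Named features were list members, the 20 most abundant miRNAs and transposons of young males, and in each table and direction up to 5 features of lowest unadjusted p with a mean of at least 100 counts and ages that did not overlap. Some features called by DESeq2, and features of the length comparison, were named after their values were seen. Members and gene lists were chosen with earlier results of these data known. The code was tested on simulated data.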

Additional observations from a re-analysis of the deposited data

Results flagged for a closer look

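Muc14A differed in its age effect between dFOXO-null and wildtype males, by -10.47 on the log2 scale (standard error 1.68, adjusted p = 0.0254 with edgeR), with every library moving the opposite way in the other genotype: -3.07 in dFOXO-null and 7.40 in wildtype males. In dFOXO-null flies of both sexes, the hairpins mir-983-1 and mir-983-2 differed in direction, at -1.30 in males and 0.71 in females (unadjusted p = 0.00743, adjusted p = 0.798 with edgeR). miR-989-3p in 19 to 25 nt reads was at 2.21 in males and -0.81 in females (unadjusted p = 0.00959, adjusted p = 0.499 with edgeR). Neither of the differences between the sexes passed the adjustment over its table.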

How the results depend on the processing

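Counts of called features depended on the tool and on single libraries. In the 19 to 25 nt table the count of 0 became 6 with DESeq2, 1 with the 4 libraries alone and 267 when scaled to spike-in reads, and leaving out 1 library gave 0 to 56 (56 without old replicate 1). In the 21 nt table it became 8 with DESeq2 and 2 with the 4 libraries alone, and on dm6 it became 18 with DESeq2, 2 with the 4 libraries alone and 724 when scaled to spike-in reads. Without the replicate block, which leaves the siblings unpaired, 0 features were called in each table. The difference between the sexes in 19 to 25 nt reads ranged from 0 to 10 calls when 1 library was left out, and that between the genotypes in the dm6 table from 0 to 1. The 2-fold counts went from 2 to 20 miRNAs and from 3 to 19 transposons with spike-in reads as denominator, and with 1 library left out were 1 to 4 miRNAs and 3 to 5 transposons.

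A set of 47 of the named log2 fold changes was followed, and it does not hold every feature named above. Of the 47, 43 kept direction and call with TMM. There hpRNA:CR46342 (-0.087), miR-11-3p (-0.050), miR-277-3p (-0.76) and miR-278-3p (-0.11) turned. miR-8-3p, which lay outside the set, turned with TMM as well. DESeq2 turned hpRNA:CR46342 (-0.11) and miR-277-3p (-0.42). With 1 library left out, miR-277-3p ranged from -0.26 (without young replicate 2) to 0.75 and was -0.087 without old replicate 2, and QBERT ranged from -0.35 (without old replicate 2) to 2.74. With spike-in reads 24 of the 47 turned: tRNA:Glu-CTC-3-9 (-1.85), 5SrRNA-Psi:CR33363 (-1.83), 5SrRNA:CR33391 and 5SrRNA:CR33405 (-1.75 each), tRNA:Glu-CTC-1-1 (-1.70) and hpRNA:CR46342 (-2.40). In 19 to 25 nt reads these were DMU89994 (-1.58), let-7-3p (-1.21), miR-11-3p (-2.70), miR-14-3p (-0.19), miR-277-3p (-3.32), miR-278-3p (-2.67), miR-317-3p (-2.23), miR-34-5p (-1.77), miR-988-3p (-0.42) and miR-989-3p (-1.44). In 21 nt reads they were DMCOPIA (-1.06), DMIS297 (-0.27), DMU89994 (-0.19), QBERT (-0.81), bantam-5p (-1.16), miR-125-5p (-0.75), miR-277-3p (-1.09) and miR-34-5p (-0.62). The cause of these turns was not tested. The shares without hairpin reads or without miR-34-5p were chosen after seeing the data.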
